A study of Mus musculus with 5 samples.

Results

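The immediate early and AP-1 genes described here are 10 genes chosen by symbol: Fos, Fosb, Fosl1, Fosl2, Jun, Junb, Jund, Egr1, Atf3 and Ier2. All 10 were found among the 17739 genes of the deposited table. Expression was measured by RNA-seq in 5 libraries of cerebellar medulloblastoma cells, named here by the numbers in their titles (1, 5, 8, 14 and 15). All 5 belong to 1 group: Math1-Cre;Gli2A mice, bred from Math1-Cre and R26;Gli2A parents, on a doxycycline (DOX) diet from conception (E0), with GLI2 labelled active. Math1-Cre drives recombination in granule neuron progenitors, the cells from which Sonic hedgehog medulloblastoma arises. The labels do not give the age of the mice, nor do they say that each number is a separate animal, so errors over the 5 libraries may be partly technical. Tumour cells were brought into suspension with papain before the RNA was taken, and every value below refers to cells after that step. With 1 group there is no comparison between conditions, and the results are levels, the spread between libraries and differences between genes within a library.

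Immediate early genes are transcribed within minutes of a stimulus, from factors already present in the cell, and so need no new protein synthesis. AP-1 is a dimer of basic leucine zipper (bZIP) proteins in which a JUN protein pairs with another JUN, a FOS or an ATF protein and binds DNA. In neurons and their progenitors these genes respond to depolarisation, growth factors and stress, through MAP kinases, cyclic AMP response element binding protein and serum response factor.

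The start sites of the genes were read first, because the proximal promoter is where these inputs are best known to act. RefSeq promoters on GRCm38.p6 were read for 7 of the 10 genes, and the 150 bases before each start were searched on both strands. No window was searched for Fosl1, Egr1 or Ier2, so nothing is said here of sites in their promoters. The core TGACG, which opens the cyclic AMP response element, was in 4 of the 7 windows (Fos, Fosb, Junb and Atf3) and in 13.3% of 32851 windows of all promoters. TGACATCA, a variant AP-1 element, was in the Jun window and in 2.32% of all windows. TATAAA was in the Fos window and in 7.57% of all. The full element TGACGTCA (1.36% of all windows), TGANTCA (4.24%) and the CArG box (0.916%), the site of serum response factor, had 0 matches in the 7 windows. At shares this low, 0 of 7 does not show that the set lacks such sites, and Egr1 was not among the 7. Serum response elements farther from the start lie outside the windows. For Jund the window lies upstream of the gene as GENCODE M21 draws it, and for Fosl2 and Atf3 inside the gene, so these windows may not be the proximal promoter in use. No 2 of the matches overlapped. The windows are shown 5′ to 3′ on the gene's strand, with matches in capitals.

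Fos (chr12:85473740-85473889, plus strand): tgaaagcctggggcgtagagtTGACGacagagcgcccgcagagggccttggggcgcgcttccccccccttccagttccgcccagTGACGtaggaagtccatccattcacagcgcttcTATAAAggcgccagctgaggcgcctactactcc

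Fosb (chr7:19310046-19310195, minus strand): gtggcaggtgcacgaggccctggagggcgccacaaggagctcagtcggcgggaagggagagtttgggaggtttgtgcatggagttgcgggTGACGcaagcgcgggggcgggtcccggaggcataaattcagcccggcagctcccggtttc

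Junb (chr8:84978749-84978898, minus strand): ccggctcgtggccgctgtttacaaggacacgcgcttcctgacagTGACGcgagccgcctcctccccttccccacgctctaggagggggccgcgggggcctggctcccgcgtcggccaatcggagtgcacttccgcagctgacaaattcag

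Atf3 (chr1:191183334-191183483, minus strand): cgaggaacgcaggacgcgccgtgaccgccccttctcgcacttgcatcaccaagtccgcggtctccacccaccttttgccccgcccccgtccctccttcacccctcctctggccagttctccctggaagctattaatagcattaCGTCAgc

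Jun (chr4:95052223-95052372, minus strand): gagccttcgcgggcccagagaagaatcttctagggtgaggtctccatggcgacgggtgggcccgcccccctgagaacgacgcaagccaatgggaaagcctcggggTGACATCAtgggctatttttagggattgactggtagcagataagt

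In Fos the TGACG matches began at positions -129 and -66 and TATAAA at -33, counted back from the RefSeq start. Matches began at -60 in Fosb, -106 in Junb, -45 in Jun and -7 in Atf3, where the match is CGTCA, the core on the other strand. The Atf3 match lies inside the first exon that GENCODE M21 gives to a transcript of that gene. A match is a run of letters and does not show that a factor was bound in these cells.

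Of the 10 genes, 9 were clearly expressed and Fosl1 was near the bottom of the scale. The 9 had a mean of at least 10 on the deposited log2 scale, a level reached by 29.4% of all genes. The same 9 were lowest in library 1, as were 16.9% of the 13691 genes whose mean reached 5 (the background used throughout). Fos fell short of its level in the other libraries by 1.64-fold there, Fosb by 1.92-fold and Atf3 by 2.06-fold. The other 4 libraries lay closer together, and which of them was highest differed from gene to gene.

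**Figure D1:**
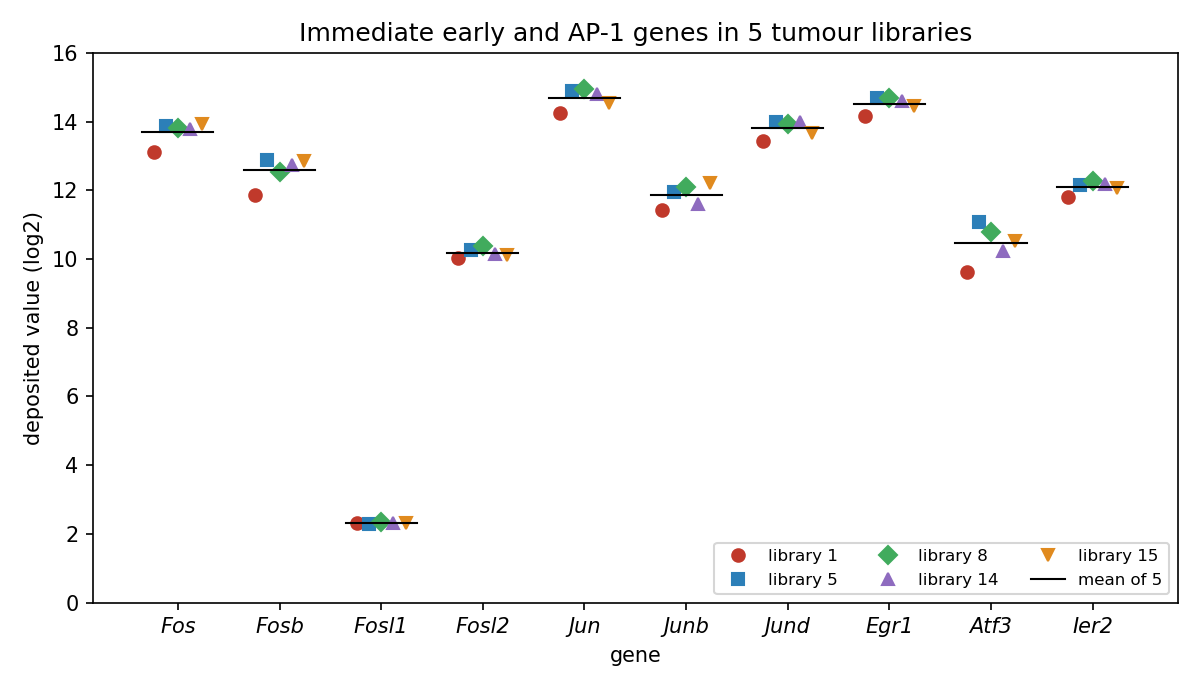
Deposited log2 value of each gene (y axis) in each of the 5 libraries (symbols), with the mean of the 5 as a bar; values of different genes are not corrected for transcript length. Fosl1 lies near 2.3 in every library, and for the other 9 genes library 1 is the lowest point.

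Fos, the founding FOS protein gene (GRCm38 chromosome 12, 85473890 to 85477273, plus strand, protein coding, up to 4 exons), had values of 13.13 in library 1, 13.88 in library 5, 13.81 in library 8, 13.77 in library 14 and 13.95 in library 15. Library 1 stood alone, 0.64 below the next lowest, while the other 4 spanned only 0.17. The mean was 13.71 ± 0.33 (SD, n = 5), and the SD lay at the 96.7th percentile of the 184 genes whose mean was within 0.5 of it.

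Fosb (chromosome 7, 19302696 to 19310051, minus strand), whose truncated product persists after repeated stimulation of neurons, had values of 11.87, 12.89, 12.54, 12.75 and 12.87 in libraries 1, 5, 8, 14 and 15. Again library 1 was apart, by 0.67 from the next lowest, and the span over the 5 was 2.03-fold. The SD of 0.42 was at the 99.0th percentile of 667 genes of like level.

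Fosl2 (chromosome 5, 32135801 to 32157842, plus strand), a FOS relative that lacks the transactivation domain of FOS and follows it in time, had values of 10.02, 10.26, 10.39, 10.14 and 10.11 in the same order of libraries. These lay close together, with a span of 1.29-fold and library 1 only 0.08 below the next. Its SD of 0.14 was at the 77.3th percentile of 2620 genes of like level.

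Fosl1 (chromosome 19, 5447547 to 5455946, plus strand), the other such relative, was between 2.28 in library 5 and 2.35 in library 8. Only 8.68% of all genes had a lower mean. At this level the assumed transformation pulls libraries towards a common value, so a difference between libraries was not detectable. Fosl1 is therefore left out of the counts over libraries, which cover genes whose mean reached 5. The other 9 passed. Fosl1 stays in the comparisons between genes and in the medians over all 10 genes.

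Jun (chromosome 4, 95049034 to 95052222, minus strand, 1 exon), which pairs with FOS in AP-1, had values of 14.25 in library 1, 14.91 in library 5, 14.94 in library 8, 14.81 in library 14 and 14.54 in library 15. Libraries 1 and 15 were the low ones and the other 3 lay within 0.14. Its mean was 14.69 ± 0.29, the 22nd highest of all genes in the table before any correction for length.

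Junb (chromosome 8, 84974484 to 84978718, minus strand), a JUN protein with weaker transactivation, had values of 11.43, 11.96, 12.09, 11.62 and 12.21 in libraries 1, 5, 8, 14 and 15. It departed from Jun in 2 libraries: library 14 was nearly as low as library 1, and library 15 was the highest. Without library 1, Junb kept 75.9% of its range of 0.79, against 21.1% for Fos. Prdx2, a peroxiredoxin gene, overlaps Junb on the opposite strand, and whether counting used strand is not given in the sources used here; Prdx2 averaged 12.72 ± 0.07.

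Jund (chromosome 8, 70698949 to 70700616, plus strand, 1 exon), the JUN protein gene least dependent on stimulation, had values of 13.44, 13.99, 13.94, 13.98 and 13.67. Like Jun, it was low in libraries 1 and 15 and nearly level in the other 3. Jun and Jund each overlap an annotated antisense gene, Junos and Gm11175, neither of which was analysed here.

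Atf3 (chromosome 1, 191170296 to 191218039, minus strand), a stress-induced bZIP repressor, had values of 9.62 in library 1, 11.09 in library 5, 10.79 in library 8, 10.25 in library 14 and 10.53 in library 15. No other gene of the 10 varied as much: the span was 2.78-fold, or 0.84 on the log2 scale without library 1. The SD of 0.56 lay at the 99.7th percentile of 2553 genes of like level.

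Egr1, a zinc finger factor induced through serum response elements (chromosome 18, plus strand), had values of 14.18, 14.69, 14.69, 14.61 and 14.47 in libraries 1, 5, 8, 14 and 15. Ier2 (chromosome 8, 84661331 to 84662852, minus strand, 1 exon), a small nuclear protein gene, had values of 11.82, 12.17, 12.27, 12.20 and 12.07. Both followed the order of Jun at its low end, with library 1 lowest and library 15 next, but over narrower spans of 1.43-fold and 1.36-fold.

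The shortfall in library 1 was then set against all genes. As each library was compared with the median of the other 4, these are differences of 1 library from 4, with no test. In library 1 the median difference of the 9 genes was -0.60, from -1.04 for Atf3 to -0.18 for Fosl2, whereas the median over all 13691 genes was 0.01. A shortfall of at least 0.5 (1.41-fold) was seen for 6 of the 9: Fos, Fosb, Jun, Junb, Jund and Atf3. Of all genes, 1.54% were that much lower in library 1. Egr1 (-0.47) and Ier2 (-0.36) came short of the threshold. An earlier look at these data had already shown related genes to be low in library 1, so the count is a description and not independent support.

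In the other 4 libraries the median differences of the 9 genes were small, at 0.15 in library 5 (-0.08 when libraries were scaled on housekeeping genes), 0.16 in library 8, 0.03 in library 14 and -0.09 in library 15. Single genes differed by -0.42 (Atf3 in library 14) to 0.43 (Junb in library 15), except that Atf3 was 0.70 higher in library 5, where 3.72% of all genes were higher by at least 0.5. Highest values fell in library 8 for 4 of the 9 genes (18.5% of all genes), in library 5 for 3 (24.1%) and in library 15 for 2 (21.4%). Only Fosb and Atf3 spanned at least 2-fold over the 5 libraries, as did 3.79% of all genes, and without library 1 neither did. The median range of the 9 genes was 0.70, against 0.27 over all genes, and without library 1 these medians were 0.32 and 0.24.

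**Figure D2:**
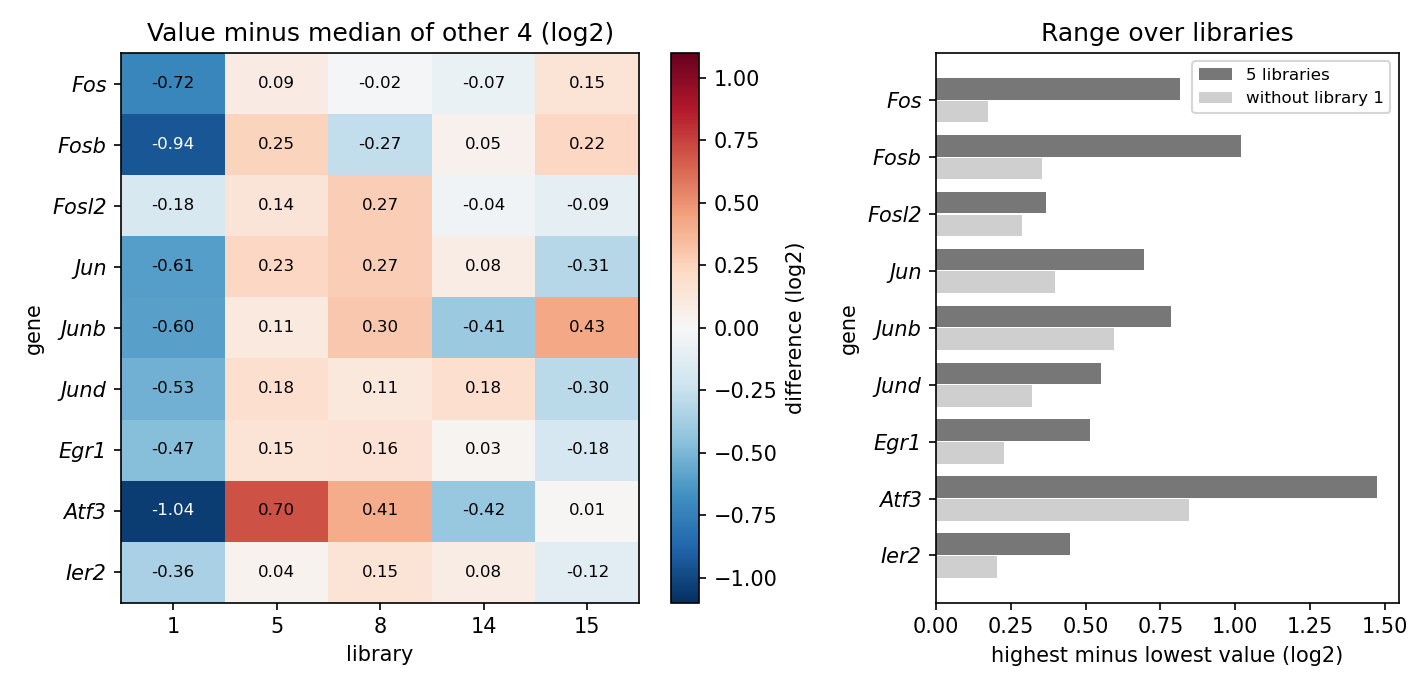
Left, each gene's value in a library minus the median of the other 4 libraries (log2, colour and number) for the 9 genes whose mean reached 5; right, highest minus lowest value over 5 libraries (dark bars) and without library 1 (light bars). The column of library 1 is negative for all 9 genes, and Junb keeps most of its range without it.

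Levels of different genes were compared within each library after subtracting log2 union exon length in kilobases. Jund (13.06 ± 0.24, log2 value per kilobase, SD, n = 5) and Jun (13.02 ± 0.29) headed the order, followed by Fos (12.48 ± 0.33), Egr1 (12.36 ± 0.22) and Ier2 (11.50 ± 0.17). Junb (10.66 ± 0.33), Fosb (9.94 ± 0.42) and Atf3 (9.35 ± 0.56) were lower, and Fosl2 (6.91 ± 0.14) and Fosl1 (1.29 ± 0.03) lowest. Neighbouring genes in 2 places of this order, Jund with Jun and Fos with Egr1, did not differ beyond their spread: the differences were 0.05 ± 0.08 and 0.11 ± 0.19, each positive in 4 of 5 libraries (exact two-sided sign-flip permutation p = 0.25). The other 7 neighbouring pairs kept their order in 5 of 5 libraries, with an exact permutation p = 0.0625, the smallest that 5 libraries allow, so no comparison of this kind can pass 0.05. Jund, Jun, Fos and Egr1 each lay at or above the 99.6th percentile of all genes by this measure, and Fosl2 at the 56.6th.

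Within the FOS family, Fos exceeded Fosb by 2.53 ± 0.13 and Fosl2 by 5.57 ± 0.28 per length. It exceeded Fosl1 by 11.18 ± 0.33, and each of these differences held in 5 of 5 libraries. Fosl1 lies near the bottom of the scale, so the size of its gap from Fos is uncertain. The gap between Fos and Fosb varied little, by 0.28 over the 5 libraries. In the JUN family, Jun exceeded Junb by 2.36 ± 0.31, and Jund exceeded Junb 5.30-fold, both in 5 of 5 libraries. Junb minus Jund ran from -2.83 in library 14 to -1.92 in library 15, a 1.88-fold change in the ratio of Junb to Jund, while Jun and Jund stayed within 0.19 of a constant ratio. Between families, Jun exceeded Fos by 0.68, 0.58, 0.69 and 0.59 in libraries 1, 5, 8 and 14 and by 0.16 in library 15. Library 15 thus stood apart, with the smallest difference between Fos and Jun. The size of the difference depends on the length subtracted. Over the 5 libraries its mean was 0.54 with union exon length, 0.38 with longest transcript length and 0.98 with no length subtracted. Atf3 lay below Jun, by -3.67 ± 0.35, and Ier2 below Fos, by -0.98 ± 0.21. Each of the 8 pairs with 1 sign in all libraries, of 10 compared, had p = 0.0625 in the exact sign-flip permutation test, which adjustment over the 10 pairs cannot lower.

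**Figure D3:**
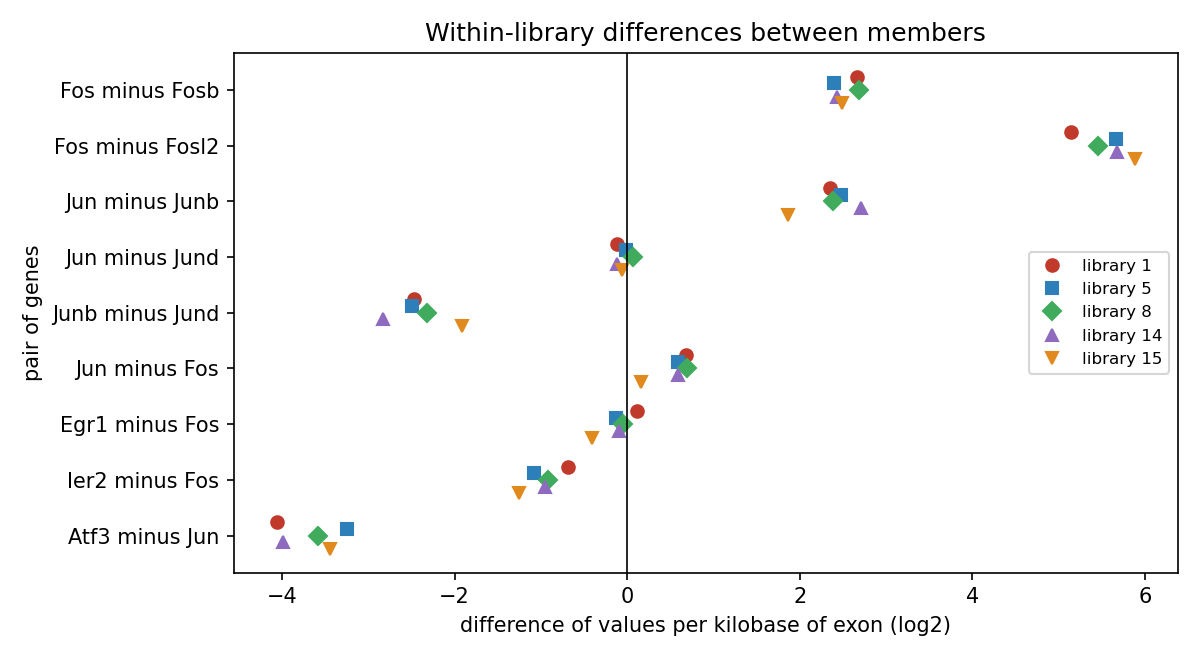
Difference between 2 genes of the set within each library (x axis, log2 value per kilobase of exon), for 9 of the 10 pairs compared (Fos minus Fosl1, near 11, is off the scale); each symbol is 1 library. Jun minus Jund lies near 0 in all 5 libraries, and Jun minus Fos is lowest in library 15.

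Other immediate early genes were low in library 1 too. Of 17 further immediate early transcription factor genes, each with a mean above that minimum, 13 were lowest in library 1 (16.9% of all genes). All 17 lay below the median of the other 4 libraries (48.0% of all genes), and 6 did so by at least 0.5 (1.54%). The median difference was -0.39. Npas4, a neuron-specific activity-dependent factor, had values of 9.53, 11.14, 10.47, 10.46 and 9.85 in libraries 1, 5, 8, 14 and 15, a 3.04-fold span. Klf6 (mean 12.14 ± 0.28) was lowest in library 1 at 11.70. Srf, the serum response factor gene itself, varied little, from 11.43 in library 1 to 11.65 in library 8.

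Among 24 immediate early genes with other products, 9 were lowest in library 1 (16.9% of all genes) and 16 lay below the median of the other 4 (48.0%). By at least 0.5, 5 were lower (1.54%), and the median difference was -0.29. Btg2, an antiproliferative gene, was 11.94 in library 1 and 12.38 to 12.62 in the others. Rhob, a small GTPase gene and the most abundant of these before correction for length, was 13.38 in library 1 and 13.36 in library 15, against 13.84 to 13.91 in libraries 5, 8 and 14.

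Some genes had the pattern of Junb, low in libraries 1 and 14 and highest in library 15. Zfp36, whose product destabilises mRNA, had values of 11.24, 11.94, 11.96, 11.38 and 12.25 in libraries 1, 5, 8, 14 and 15. Nr4a1, an orphan nuclear receptor gene, had values of 10.82, 11.55, 11.81, 11.18 and 12.01. Ccn1, a secreted matrix protein gene, shared only part of it: its values were 10.67, 10.64, 11.29, 10.57 and 11.61, so that library 5 was low as well. Outside the immediate early lists, the heat shock genes Hspa1a, Hspa1b and Hspb1 ranked the libraries in the same order as Junb. The likeness to Junb was noticed in the values and was not tested.

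Heat shock and chaperone genes were divided. Their median difference in library 1 was -0.00, yet 5 of 13 were lowest there (16.9% of all genes) and 3 of 13, Hspa1a, Hspa1b and Hspb1, were lower by at least 0.5 (1.54% of all genes). Dnajb1, a co-chaperone gene of inducible HSP70, was also lowest in library 1, with a difference of -0.43. Hspa1b, a stress-inducible HSP70 gene, had values of 10.21, 10.92, 11.42, 10.75 and 11.84 in libraries 1, 5, 8, 14 and 15, and its near-identical neighbour Hspa1a 9.81, 10.51, 10.93, 10.38 and 11.33; reads shared by the pair could have been split or dropped. The constitutive genes Hspa8 and Hsp90ab1 spanned only 0.14 and 0.09.

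The upstream machinery and the other dimer partners had smaller median ranges over the 5 libraries, 0.17 and 0.25, against 0.70 for the 9 genes. The upstream list held 20 genes for MAP kinases, their activators, the RSK and MSK kinases and partners of serum response factor. Of these, 5 were lowest in library 1 (16.9% of all genes) and 7 highest (2763 of the 13691 genes). In library 1, 0 of the 20 differed by 0.5 in either direction. Of all genes, 1.54% were lower and 1.63% higher by that much, so a count of 0 is near the background. Rps6ka1, an RSK kinase gene, varied most of them: it was 9.39 in library 5 and 8.60 to 8.80 in the others, a range of 0.79 that exceeds that of Jun. Of 16 other bZIP genes, 13 passed the mean of 5, and their median difference in library 1 was -0.05. A count of 0 of the 13 were lower there by 0.5, which is near the 1.54% of all genes. Maf, with a range of 0.56 and its highest value in library 5, and Mafk, with a range of 0.55 and its lowest in library 1, varied more than Fosl2, Egr1 and Ier2. Creb1 spanned 0.06 and Atf4, which drives Atf3 in the integrated stress response, ranged from 12.60 in library 15 to 13.01 in library 8. Batf2, at 1.26 ± 0.04, and Batf and Batf3 were the 3 that did not pass.

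Markers of the labelled cell type and of other cells were read. All 13 genes listed as granule progenitor tumour markers passed the mean of 5, among them Zic1 at 15.08 ± 0.05 and Ptch1 at 14.47 ± 0.32. So did 13691 of the 17739 genes, with all 14 microglia and all 10 endothelial markers, so passing does not establish the cell type. Atoh1, the proneural factor also called Math1 that defines granule progenitors, was the lowest of the 13 genes, with values of 8.00, 8.17, 8.27, 9.18 and 9.49 in libraries 1, 5, 8, 14 and 15. The median difference of the 13 in library 1 was -0.03, but Atoh1 (-0.73) and Barhl1 (-0.53), a homeobox gene of the same lineage, were lower there by at least 0.5; their part in the immediate early values was not tested. Markers of other cells were present as well. Oligodendrocyte markers moved with the immediate early genes in library 1: 7 of the 8 with a sufficient mean were lowest there (16.9% of all genes). By at least 0.5, 6 were lower (1.54%), and the median difference was -0.80. The log2 of the summed level of the 9 markers in the table was 14.49 in library 1 and 14.74 to 15.87 in the others; none was at 0, and Mbp was 13.46 in library 1 and 13.61 to 14.88 in the others. In the other libraries the median differences of oligodendrocyte markers were 0.80 in library 5, 0.47 in library 8, -0.08 in library 14 and -0.53 in library 15, beside 0.15, 0.16, 0.03 and -0.09 for the 9 genes. In bulk RNA, fewer cells of a type and less RNA per cell cannot be told apart. The part of oligodendrocytes in the immediate early values was not tested.

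Mature granule neuron markers were lower in library 1 by a median of -0.36, with log2 summed levels of 13.95 in library 1 and 13.73 to 14.13 in the others. Of the 9, 3 were lower there by at least 0.5 (1.54% of all genes). Only 2 of 9 were lowest there, near the 16.9% of all genes. The part of these markers in the result was also not tested. Microglia markers had a median difference of -0.03 in library 1, with 0 of 14 lowest there (16.9% of all genes), and log2 summed levels of 13.77 in library 1 and 13.53 to 14.36 elsewhere. For endothelial markers the median difference was 0.19, for pericyte and fibroblast markers 0.05 and for astrocyte markers -0.10. In libraries 5, 8, 14 and 15 the pericyte and fibroblast markers had median differences of -0.23, 0.29, -0.34 and 0.32. Their part in the values of Junb was not tested. Housekeeping genes differed by a median of 0.05.

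**Figure D4:**
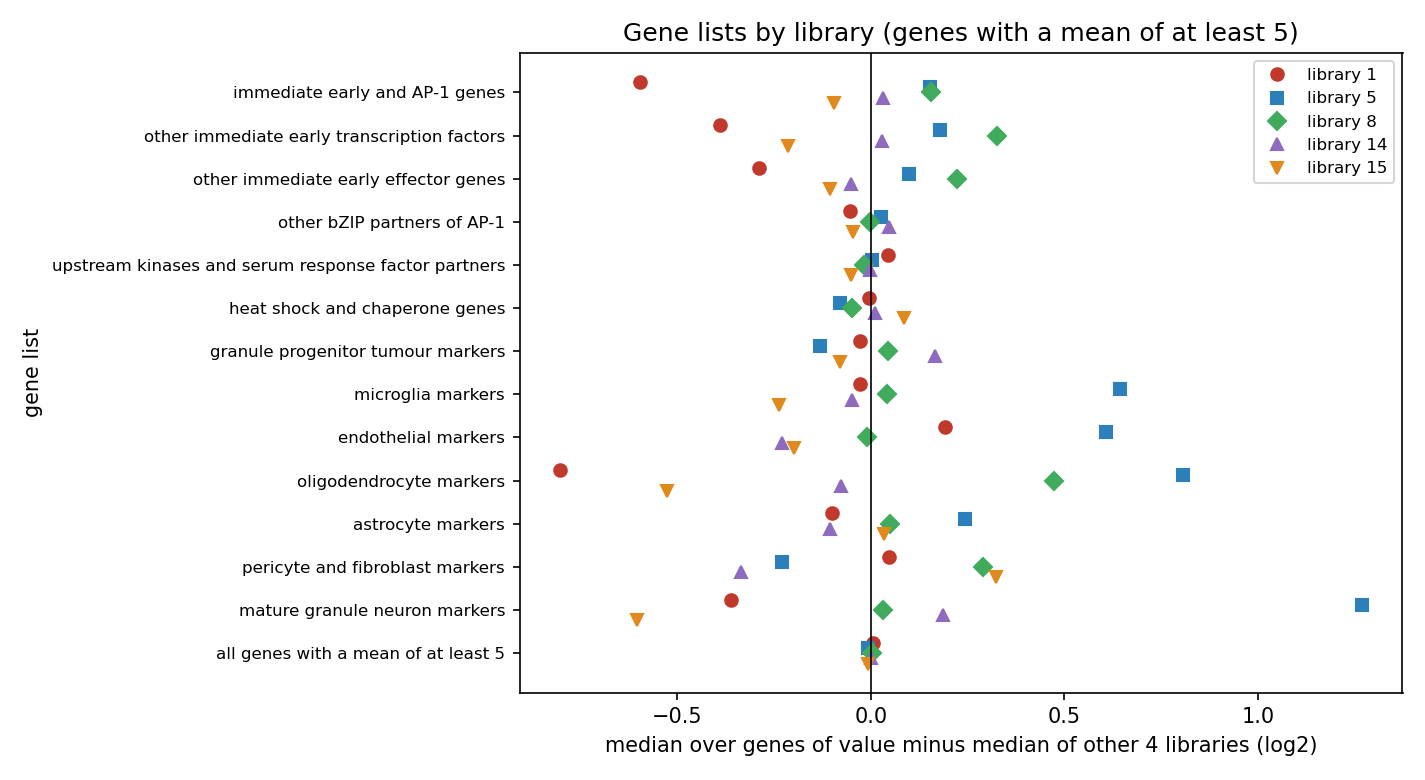
For each gene list (y axis), the median, over its genes whose mean reached 5, of the value in a library minus the median of the other 4 libraries (x axis, log2); symbols are libraries. Library 1 is the leftmost symbol for the 3 lists of immediate early genes, at -0.60, -0.39 and -0.29, and for oligodendrocyte markers at -0.80, and lies near 0 for upstream kinases, at 0.04.

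Finally, the genes closest in pattern were sought among 5748 genes whose mean reached 5 and whose range was at least 0.5 times the median range of the 10 genes. Likeness was the root mean square difference between profiles centred on their means, over 5 libraries. The profile of the set, the median over its 10 centred genes, was -0.40, 0.17, 0.17, 0.07 and -0.01 in libraries 1, 5, 8, 14 and 15. Outside the set, Il20rb, a cytokine receptor subunit gene, was nearest (0.03), and the immediate early gene Klf6 was ninth of the 10 nearest (0.06). Nearest to Fos were Tgfb3, a transforming growth factor beta ligand gene (0.04), and Klf4, an immediate early Kruppel-like factor gene (0.06). Tent5c (0.03), Klf6 (0.06) and Jund (0.07) were nearest to Jun. For Egr1 the nearest were Vwa3a (0.03) and Otud1, a deubiquitinase gene (0.04). With 5 libraries many genes share a pattern, and the distances are descriptions.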

How the data were processed

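The authors deposited 1 table of log2 values per gene symbol, taken to be regularised logs because of the table's short name in the labels. Per the submitters' processing notes, the authors' tools included STAR 2.4.1, featureCounts of Subread 1.4.6 and DESeq2, and the builds mm10 and GRCm38. For annotation, strand setting and gene filter, the answer is not given in the sources used here. This scale corrects for library size, not transcript length, and pulls weakly expressed genes towards their mean. Counts were not used, so the depth is unknown and counting intervals are left out. The table holds 2 further columns that match no sample; they were not used, although they may have entered the transformation.

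The members, gene lists, pairs and the rule for named genes were chosen with earlier results of these data known. The rule took all 10 members; from each other list the 2 genes of highest mean, the 1 of lowest mean and the 2 of largest range; the 10 genes nearest to the members' median profile; and the 3 nearest to Fos, Jun and Egr1. Those needed for each description are printed, and 1 gene the rule names is not reported here. The background was the genes whose mean reached 5. Union exon lengths came from GENCODE M21 (GRCm38), matching 97.5% of symbols to 1 gene. Cyr61, Ctgf, Mkl1 and Mkl2 were found under their current symbols. Differences within libraries were tested by exact permutation of their signs, two-sided, over 32 patterns. Each library was also left out in turn, and libraries were rescaled by their median, by housekeeping genes and by quantiles. Steps were checked on simulated data. Python 3.11.15, numpy 2.4.6 and pandas 2.3.3 were used.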

Additional observations from a re-analysis of the deposited data

Results flagged for a closer look

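Of 34 sets of 5 values examined (single genes, list medians and pairs), 5 held a value far from the other 4, by a gap over 0.71 of the whole range. Chance alone sets apart about 1 in 20 such sets, and several of these share genes. Fos was low in library 1, at 13.13. The median of the 10 genes was low there too, at 11.85 against 12.40 to 12.54 in the others. Fos minus Fosl1 per length, 10.62 in library 1, follows from Fos. Jun minus Fos per length was low in library 15, at 0.16. The median of the other bZIP partners was high in library 14, at 9.43.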

How the results depend on the processing

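The 9 genes whose mean reached 5 remained lowest in library 1 under all 3 other scalings and without each other library. Their median difference in library 1 ran from -0.62 to -0.56 over the 6 planned changes of scaling, summary and filter, and from -0.66 to -0.55 without each other library. Housekeeping scaling moved the median of all genes in library 5 by -0.16 relative to the deposited scale, and the members' median difference there to -0.08. In library 14 that difference took either sign without 1 other library, from -0.11 to 0.13. Of the 10 pairs, 2 turned direction with no length subtracted: Jun minus Jund became 0.89 and Egr1 minus Fos 0.82. With the length of the longest transcript, Fos minus Fosb became 1.97, Jun minus Junb 2.01 and Egr1 minus Fos -0.27. The count of genes spanning 2-fold, 2 as reported, was 7 at a range of at least 0.5 and 0 at 1.5. The shares of all genes at those ranges were not computed. Without each library the count lay between 0 (without library 1) and 2, and was 1 without library 5. No pairing of samples between groups was possible because the samples form a single group. The unknown depth and the pull on weak genes limit what can be said of Fosl1.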

Other observations

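Several immediate early genes did not share the shortfall in library 1; they were picked out after their values were seen. Gadd45g, a growth arrest and DNA damage gene, was highest in library 1, at 10.52, and lowest in library 15, at 9.90. Ier5l was 10.72 in library 1 and 9.93 in library 15. Dusp6, a MAP kinase phosphatase gene, was 10.69 in library 1 and 10.51 to 10.77 in the others, while Dusp1, another such gene, was 11.69 in library 1 and 12.10 to 12.64 in the others. Homer1 spanned 0.08 over the 5 libraries.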
